A study of Mus musculus with 9 samples.

Results

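The major histocompatibility complex of the mouse, named H2, is a cluster of genes whose products carry peptides to the cell surface, where T cells read them. Class I heavy chains pair with beta-2 microglobulin and show peptides from inside the cell, and nearly every nucleated cell makes the classical pair H2-K and H2-D. Class II molecules are built of an alpha and a beta chain and show peptides from endosomes, in mice mainly on dendritic cells, B cells and macrophages, and interferon gamma raises the transcription of both classes. The H2 genes were taken as every entry of the deposited count table whose symbol starts with H2- and holds no -ps, which gave 41 of 45808 genes. All 41 lie on chromosome 17 in GENCODE M21 (build GRCm38).

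The counts come from ICOS+ CD4 T cells, an activated T cell population, sorted by flow cytometry 12 days after injection of the tumour cells from C57BL/6J mice bearing MC38, a mouse colon adenocarcinoma line. Of the mice, 3 received anti-CTLA-4, 3 received anti-PD-1 and 3 were Control mice, with 1 library per mouse. All mice share the strain, the tumour line and the day, while the sources used here do not give the age of the mice, the control treatment, antibody clones or doses. The design asks whether the antibodies, which block different inhibitory receptors, leave different profiles in these cells.

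Libraries held 25530333 to 41508589 gene counts. Values are given as CPM, counts scaled to a library total of 1000000 gene counts, and a count of 3 equals 0.0723 to 0.118 CPM. The fits behind each log2 fold change add TMM factors, which rescale a library by the bulk of its genes. This factor was 0.407 in anti-CTLA-4 replicate 2, against 0.830 to 1.26 elsewhere, so a fitted change can differ in sign from a ratio of CPM means wherever that library enters. Control factors were 1.181 to 1.259, all above those of treated libraries, which were at most 1.177. Dividing CPM by these factors therefore moves every gene towards higher values in treated than in Control libraries. The share of all genes whose groups do not overlap after this division was not counted. Anti-CTLA-4 replicate 2 stood apart before any H2 gene was considered. It had 2662 genes at 5 CPM or more, against 4209 to 6309 elsewhere. Its 10 T cell markers summed to 3263 CPM, against 6399 to 9587 CPM elsewhere, and its 14 macrophage and monocyte markers to 4990 CPM, against 243 to 1033 CPM. Its Cd4 level was 24.5 CPM and its Cd3e level 0.590 CPM, while the lowest values elsewhere were 308 and 347 CPM. Cd2, Cd28, Icos and Trbc2 were also lowest in this library, and Lck lay within the range of the others. The T cell markers Cd3d, Cd3g and Trac went the other way and were highest in this library, at 696, 649 and 632 CPM. In bulk RNA of this kind, fewer cells of a type and less RNA per cell cannot be told apart. A 0 carries little weight, because 32200 of 45808 genes had no count in any library, among them Ifngr2 and Socs1, which T cells are known to use.

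Of the 41 members, 24 are class I heavy chain genes, 9 are class II chain or peptide loading genes, 5 are class I pseudogenes, 2 are class II pseudogenes, and H2-Ke6 encodes a hydroxysteroid dehydrogenase that is no MHC chain. No count was found in any library for 17 of them. These were 10 of the 12 M-region genes (all but H2-M2 and H2-M3, and including the H2-M10 family known from the vomeronasal organ), H2-T3, the thymus leukaemia antigen of gut epithelium, and the class II genes H2-DMb1, H2-Oa and H2-Eb2, with the pseudogenes H2-Q3, H2-Pa and H2-Pb. Another 6 (H2-Bl, H2-K2, H2-Ke6, H2-M2, H2-Ob and H2-Q1) had counts but never reached 5 CPM, with highest values of 0.0292 to 4.47 CPM. H2-Q2 reached 5 CPM in 1 library, at 39.1 CPM in anti-PD-1 replicate 3. The remaining 17 reached 5 CPM in at least 2 libraries, 11 of them in at least 6, and H2-K1, H2-D1, H2-Q7, H2-Q6, H2-Q4 and H2-Eb1 in all 9.

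**Figure D1:**
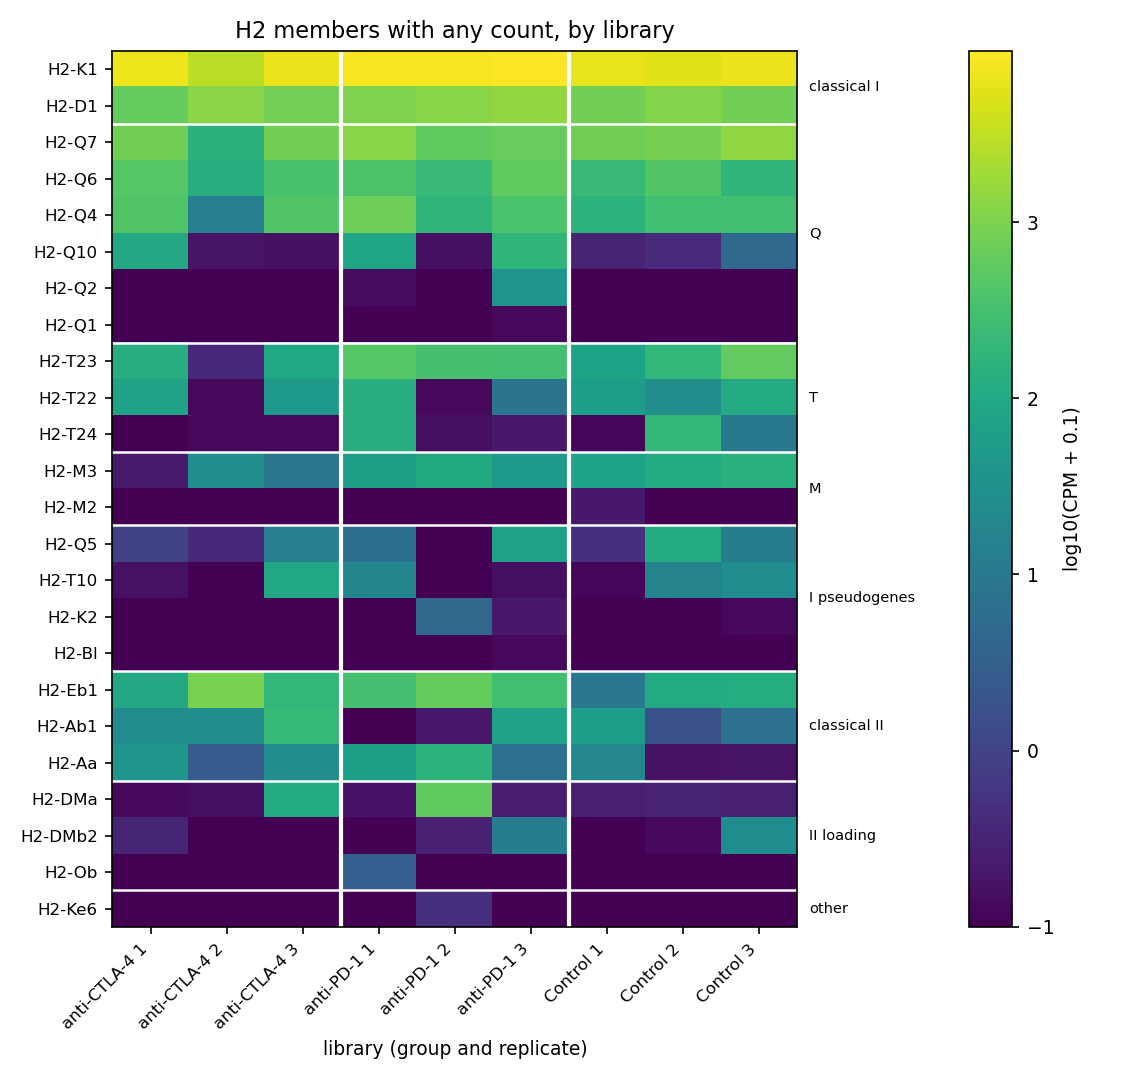
Level of the 24 H2 members with any count, as log10(CPM + 0.1), in the 9 libraries (columns, with white lines between anti-CTLA-4, anti-PD-1 and Control) and by family (blocks of genes, named at the right). H2-K1 is bright throughout, while genes such as H2-Q10, H2-T24 and H2-DMa are bright in single libraries and dark in others of the same group.

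Detection was uneven within groups. At 1 CPM or more, 11, 9 and 14 members were detected in anti-CTLA-4 replicates 1, 2 and 3, 15, 11 and 15 in the anti-PD-1 libraries, and 11, 13 and 15 in the Control libraries. The groups overlapped. For 11 members one library held at least 1000 counts and another fewer than 30, in the same or another group. The H2 members together took 0.993%, 0.549% and 0.996% of gene counts in the anti-CTLA-4 libraries, 1.32%, 1.23% and 1.35% in the anti-PD-1 libraries, and 0.875%, 0.906% and 1.06% in the Control libraries.

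Class I came first by level. Per kilobase of exon, H2-K1 averaged 2332 CPM over the 9 libraries, H2-D1 396 CPM, H2-Q7 192 CPM, H2-Q6 160 CPM, H2-Eb1 154 CPM, H2-Q4 124 CPM, H2-T23 84.6 CPM and H2-M3 45.9 CPM, and the other 9 members named below 2.44 to 22.2 CPM. H2-K1 was above H2-D1 in every library, by a ratio per kilobase of 1.97 in anti-CTLA-4 replicate 2 and 4.45 to 10.05 in the others. The order among H2-Q7, H2-Q6 and H2-Q4 is less certain, because these genes share sequence and the table sets reads that map to several places apart from gene counts. Of the distinct 76-base windows of their GENCODE M21 transcripts, 16.7% of those of H2-Q7, 20.6% of H2-Q6 and 6.90% of H2-Q4 also occur in a gene elsewhere, against 2.96% for H2-K1, 5.40% for H2-D1, 5.77% for H2-T23 and 0% for H2-Eb1, H2-Aa, H2-Ab1 and H2-M3. For H2-T22, H2-T10 and H2-Q5 the shares were 17.9%, 15.5% and 20.9%, and for H2-DMb2 and H2-Q10 15.9% and 12.3%. H2-DMb1, at 0 counts, had 15.7%, shared with H2-DMb2.

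The promoters show how closely the abundant class I genes are related. RefSeq (GRCm38.p6) gives 34 promoter windows, from 250 bases before to 50 after a gene start, for 31 of the 41 members. Each window was searched on both strands for the core of the interferon response element (GAANNGAAA) and for the X2 box (TGACGC) and Y box (CCAAT) cores, which the class I and class II activators NLRC5 and CIITA use through partner proteins. Of all 32851 windows in the table, 7.52% hold GAANNGAAA, 7.40% TGACGC and 37.4% CCAAT. GAANNGAAA occurred for 8 members (H2-K1, H2-D1, H2-Q4, H2-Q6, H2-Q7, H2-Q10, H2-M2 and H2-M3). TGACGC occurred for 4 members (H2-K1, H2-D1, H2-Q4 and H2-M3), and CCAAT for 28 members. The stretches below, 110 bases each on the gene's own strand, are the 6 class I promoters with GAANNGAAA among genes at 5 CPM in at least 6 libraries, lined up on that match. Capitals mark the matches, which do not overlap each other, and a match is a stretch of letters, not a shown binding site.
H2-K1 (chr17:34000353-34000462, minus strand): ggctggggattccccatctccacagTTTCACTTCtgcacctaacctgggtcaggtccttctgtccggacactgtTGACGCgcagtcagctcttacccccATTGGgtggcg
H2-D1 (chr17:35262919-35263028, plus strand): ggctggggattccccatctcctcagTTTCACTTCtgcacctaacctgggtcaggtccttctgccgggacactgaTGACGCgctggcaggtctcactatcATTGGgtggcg
H2-Q4 (chr17:35379439-35379548, plus strand): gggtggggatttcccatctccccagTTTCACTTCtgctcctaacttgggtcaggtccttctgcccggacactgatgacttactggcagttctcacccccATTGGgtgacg
H2-Q6 (chr17:35424673-35424782, plus strand): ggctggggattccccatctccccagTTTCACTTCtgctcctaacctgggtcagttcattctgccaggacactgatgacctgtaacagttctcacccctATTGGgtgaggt
H2-Q7 (chr17:35439017-35439126, plus strand): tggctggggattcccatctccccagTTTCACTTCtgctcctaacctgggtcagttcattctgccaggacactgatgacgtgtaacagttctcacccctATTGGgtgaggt
H2-M3 (chr17:37270108-37270217, plus strand): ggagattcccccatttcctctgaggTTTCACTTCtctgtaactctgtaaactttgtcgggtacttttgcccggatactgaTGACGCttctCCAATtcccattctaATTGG
Compared base by base without gaps, H2-K1 and H2-D1 matched at 99 of 110 positions, H2-Q6 and H2-Q7 at 102, H2-K1 and H2-Q4 at 95, and H2-K1 and H2-M3 at 39. The TGACGC match of H2-Q4 lies outside its stretch, after the gene start.

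H2-K1 was higher in each anti-PD-1 mouse than in any Control mouse, but no H2 gene passed the test. The test was edgeR's quasi-likelihood test over all 9 libraries, with p-values adjusted over 7858 genes by Benjamini-Hochberg and a threshold of 0.05. H2-K1, the K heavy chain (ENSMUSG00000061232, chr17:33996017-34000347), stood at 8480, 8274 and 9394 CPM in anti-PD-1 mice, against 6417, 5560 and 6812 CPM in the Control libraries. Every anti-PD-1 library was above every Control library, with means of 8716 ± 596 and 6263 ± 640 CPM (SD, n = 3 each). H2-K1 was the 7th to 8th most abundant gene in the anti-PD-1 libraries and the 11th in each Control library. Its fitted log2 fold change was 0.71 (SE 0.32), with an unadjusted p of 0.0262 and an adjusted p of 0.823 by edgeR. Limma voom with quality weights, run as an alternative, called H2-K1 at a log2 fold change of 0.59 (adjusted p = 1.88e-07), 1 of 2 genes it called, or 0.0255% of those tested. Over the 18 alternatives the change stayed between 0.48 and 0.93. The adjusted p lay between 1.88e-07 and 1 in the alternatives that gave a value, and DESeq2 gave none for H2-K1.

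H2-D1, the D heavy chain (ENSMUSG00000073411, chr17:35262730-35267499), stood at 1031, 1202 and 1438 CPM after anti-PD-1, against 833, 1098 and 822 CPM in controls. The groups overlapped in CPM at 1 library each but not once divided by TMM factors, at 889, 1448 and 1221 after anti-PD-1, against 705, 872 and 669.9 in controls. The fitted change of 0.66 (SE 0.65) did not pass (adjusted p = 0.9998 by edgeR). H2-K1 made up 66.6%, 75.9% and 72.2% of the class I heavy chain CPM after anti-PD-1 and 74.1%, 63.1% and 65.4% in controls. The 24 class I heavy chain genes summed to 12734, 10906 and 13015 CPM after anti-PD-1, against 8657, 8813 and 10409 CPM in controls, without overlap. H2-K1 is the largest part of these sums, so they are no separate observation. The 22 nonclassical genes among them overlapped, at 3223, 1429 and 2183 CPM after anti-PD-1, against 1407, 2155 and 2774.5 CPM in controls. Control TMM factors are all higher, so dividing by them could not make the separate sums overlap, and the scaled sums add nothing. Class I is made by nearly all cells, so markers of other tumour cells belong beside it. Of 5 epithelial markers, Krt8, Krt18, Krt19 and Cdh1 were at 0 counts in every library and Epcam reached 57.7 CPM in anti-PD-1 replicate 1, against at most 0.0279 CPM in controls. The 6 fibroblast markers, of which Pdgfrb was at 0 counts throughout, summed to 31.4 to 194 CPM after anti-PD-1, against 199 to 376 CPM in controls. The part of such cells in the class I values was not tested.

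**Figure D2:**
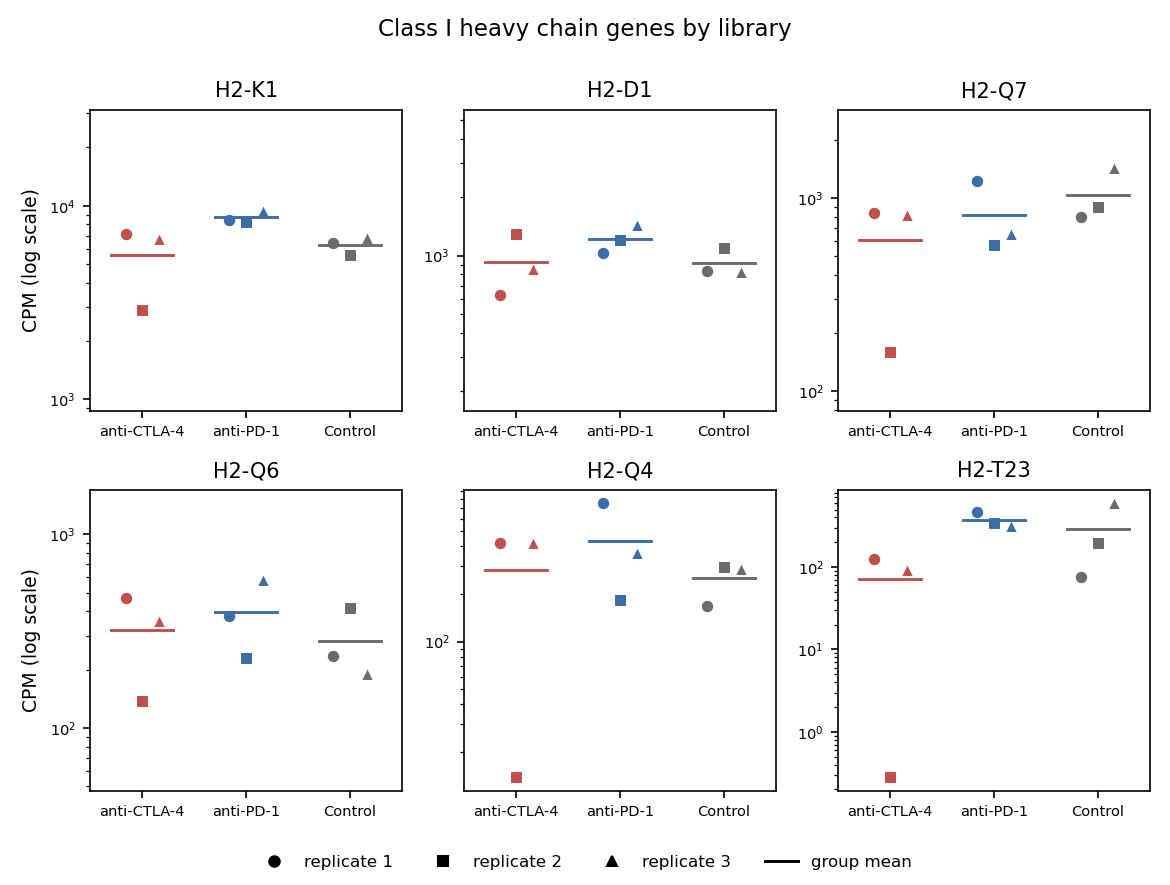
CPM (log scale) of 6 class I heavy chain genes in the libraries of the 3 groups; symbols mark replicates and lines the group means. H2-K1 lies between 8274 and 9394 CPM in all anti-PD-1 libraries, above all Control libraries, while the other genes overlap between anti-PD-1 and Control, and anti-CTLA-4 replicate 2 is lowest for every gene shown but H2-D1.

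Nonclassical class I genes did not move together after anti-PD-1. H2-T23, whose product Qa-1 shows a leader peptide to the CD94-NKG2A receptor of natural killer and T cells, stood at 468, 340 and 312 CPM after anti-PD-1, against 76.6, 194 and 593 CPM in controls. The anti-PD-1 values all lay within the range of the controls (log2 fold change 0.62, SE 1.39, adjusted p = 0.9998 by edgeR). H2-Q7, which encodes the lipid-anchored Qa-2 antigen, stood at 1219, 570 and 651 CPM, against 792, 900 and 1424 CPM in controls (log2 fold change -0.15, SE 0.78). H2-Q6 stood at 380, 230 and 581 CPM, against 237, 417 and 190 CPM in controls, and H2-Q4 at 749.5, 183 and 365 CPM, against 167, 297 and 290 CPM. Their fitted changes were 0.68 (SE 1.17) and 0.94 (SE 1.23), both with adjusted p of 0.9998, and each of these 3 Q-region genes overlapped between the groups.

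H2-M3, which shows peptides that begin with formyl methionine, stood at 63.7, 106 and 48.9 CPM after anti-PD-1, against 75.6, 110 and 152 CPM in controls (log2 fold change -0.30, SE 2.34). H2-T22, a ligand of some gamma delta T cell receptors, stood at 130, 0.0302 and 8.06 CPM, against 58.1, 28.6 and 111 CPM (log2 fold change -0.44, SE 2.72). Neither passed, at an adjusted p of 0.9998 for both by edgeR. Some members were high in 1 library and near 0 in another of the same group. With 1 library per mouse, differences between mice and between library preparations cannot be told apart. H2-Q10, known as a secreted class I molecule of liver, stood at 81.9, 0.0604 and 178 CPM after anti-PD-1, against 0.217, 0.289 and 4.92 CPM in controls. H2-T24, another T-region gene, stood at 129, 0.0604 and 0.117 CPM, against 0.0241, 209 and 10.3 CPM. The pseudogene H2-Q5 stood at 6.54, 0 and 68.5 CPM, against 0.385, 117 and 12.8 CPM, and H2-T10, annotated as a polymorphic pseudogene, at 19.2, 0 and 0.0584 CPM, against 0.0241, 16.7 and 26.6 CPM.

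Class II genes were higher in treated mice as a sum that rested largely on H2-Eb1. The 9 class II chain and loading genes summed to 163, 949 and 548 CPM after anti-CTLA-4, to 391, 1351 and 387 CPM after anti-PD-1, and to 89.5, 114 and 154 CPM in controls. All 6 treated libraries were above every control, the lowest being anti-CTLA-4 replicate 1, and the statement does not rest on anti-CTLA-4 replicate 2. It does rest on H2-Eb1, without which the groups overlapped. H2-Aa and H2-Ab1 stood at 20.2 and 59.5 CPM in Control replicate 1. In anti-CTLA-4 replicate 2 they stood at 2.53 and 28.0 CPM, with the members of the sum other than H2-Eb1 near 0. Both comparisons use the same 3 controls. No test was made on the sum. H2-Eb1, the beta chain of I-E (ENSMUSG00000060586, chr17:34305867-34316674), had the highest CPM of these genes in every library except anti-CTLA-4 replicate 3 and Control replicate 1, where H2-Ab1 did. C57BL/6 mice are known not to make I-E protein, because their I-E alpha gene, H2-Ea-ps, does not work, so this transcript has no partner chain. H2-Eb1 stood at 324, 614 and 294 CPM after anti-PD-1, against 9.64, 112 and 121 CPM in controls, and the groups did not overlap. The means were 410 ± 177 and 80.7 ± 61.7 CPM, and the fitted log2 fold change of 2.70 (SE 1.05) had an unadjusted p of 0.0102 and an adjusted p of 0.823 by edgeR.

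**Figure D3:**
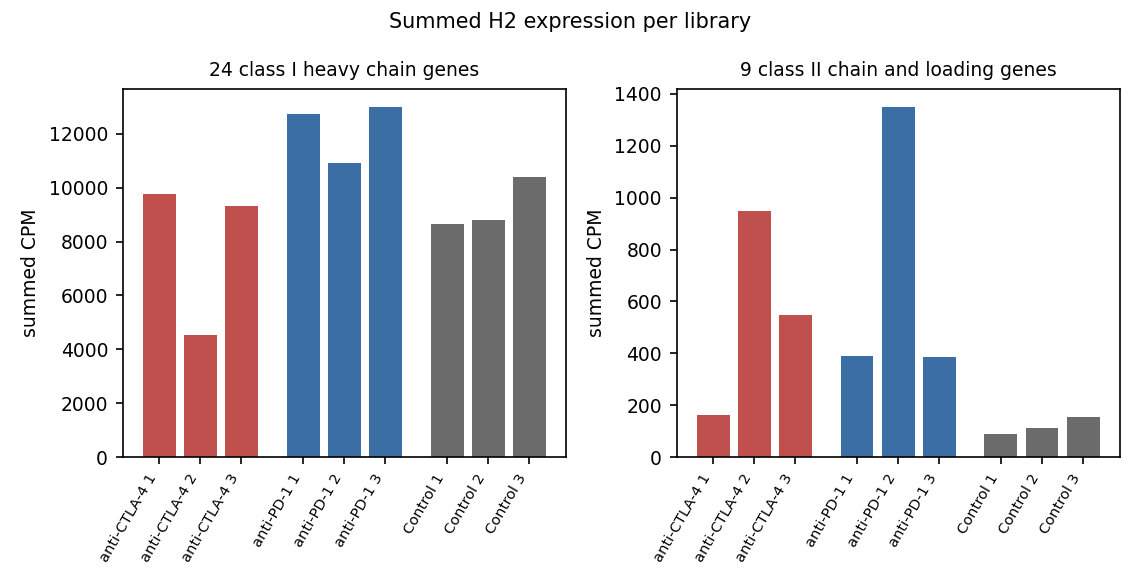
Summed CPM per library of 24 class I heavy chain genes (left) and 9 class II chain and loading genes (right), both axes from 0, for anti-CTLA-4, anti-PD-1 and Control mice (replicate number after the group). Class II sums are 163 to 1351 CPM in the 6 treated libraries and 89.5 to 154 CPM in controls, and class I is lowest, at 4539 CPM, in anti-CTLA-4 replicate 2.

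The chains of I-A, the class II molecule that C57BL/6 mice do make, differed in which anti-PD-1 libraries held them. H2-Aa, the alpha chain (ENSMUSG00000036594, chr17:34282744-34287823), stood at 64.1, 161 and 7.42 CPM after anti-PD-1, against 20.2, 0.0643 and 0.0838 CPM in controls (log2 fold change 3.89, SE 3.20, adjusted p = 0.9998 by edgeR). H2-Ab1, the beta chain (ENSMUSG00000073421, chr17:34257689-34269419), stood at 0, 0.121 and 73.5 CPM, against 59.5, 1.61 and 7.27 CPM (log2 fold change 0.12, SE 2.66, adjusted p = 0.9998 by edgeR). The 2 anti-PD-1 libraries with the most H2-Aa were thus the 2 with the least H2-Ab1. H2-DMa, the alpha chain of the H2-DM molecule that loads peptides onto class II, stood at 576 CPM in anti-PD-1 replicate 2 and at 0.0783 and 0.146 CPM in replicates 1 and 3, against 0.168 to 0.193 CPM in controls. Its partner H2-DMb2 stood at 0, 0.181 and 12.3 CPM after anti-PD-1, against 0, 0.0322 and 25.6 CPM in controls. H2-Ob, the beta chain of the H2-DM inhibitor H2-O, was read at 2.90 CPM in anti-PD-1 replicate 1 and at 0 counts elsewhere.

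Class II promoters carry a conserved block of boxes that ends, towards the gene, in the Y box. The stretches of 110 bases below (GRCm38.p6, the gene's own strand) show it in capitals, as the reverse complement of CCAAT, for the class II chain genes with the larger fitted changes after anti-PD-1.
H2-Eb1 (chr17:34305723-34305832, plus strand): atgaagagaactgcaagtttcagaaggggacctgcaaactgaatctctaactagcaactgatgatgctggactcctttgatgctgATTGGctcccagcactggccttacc
H2-Aa (chr17:34287847-34287956, minus strand): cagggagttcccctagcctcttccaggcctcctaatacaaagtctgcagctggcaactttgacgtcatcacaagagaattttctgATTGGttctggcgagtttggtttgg
H2-Ab1 has no window in the promoter table.

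Cells that make class II could be present in a sort, so their markers are given beside these values. The 14 macrophage and monocyte markers summed to 1033, 4990 and 422 CPM after anti-CTLA-4, to 271, 649 and 682 CPM after anti-PD-1, and to 792, 243 and 394 CPM in controls, with 13, 12 and 13 of the 14 at 1 CPM or more in some library of these groups. The 9 dendritic cell markers summed to 50.4 to 250 CPM, 25.1 to 102 CPM and 7.27 to 75.6 CPM in the same groups, and Flt3, Clec9a, Cd209a, Batf3 and Siglech were at 0 counts throughout. Of the 8 B cell markers, Cd79a and Pax5 were among those at 0 counts in every library, and nearly all of the sums of 856 to 1043, 405 to 865 and 415 to 703 CPM came from Ighm. Ciita, the class II activator that class II genes depend on, was at 0 counts in every library, which limits it to the floor of 3 counts in each. Cd74, the invariant chain that escorts class II, stood at 12.0, 152 and 223 CPM after anti-CTLA-4, 63.7, 190 and 81.7 CPM after anti-PD-1, and 307, 9.33 and 117 CPM in controls. The part of other cell types in the class II values was not tested.

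**Figure D4:**
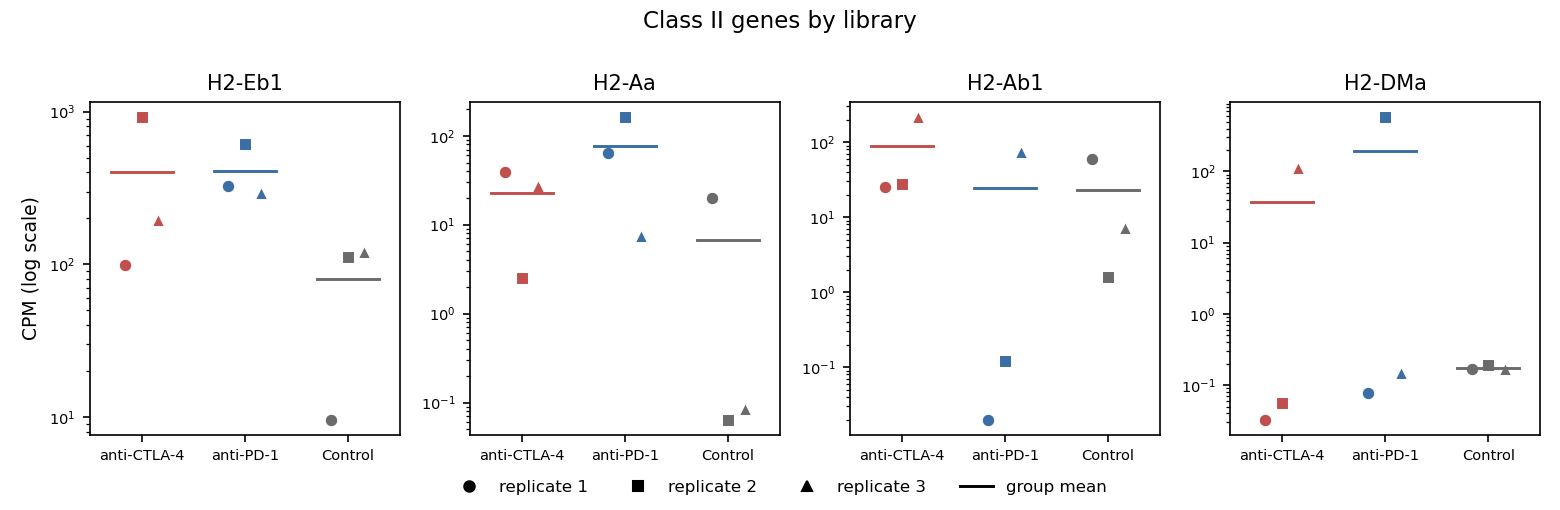
CPM (log scale) of 4 class II genes in the libraries of the 3 groups; symbols mark replicates, lines the group means, and the value of 0 for H2-Ab1 in anti-PD-1 replicate 1 is drawn at 0.02. H2-Eb1 is at 294 to 614 CPM in anti-PD-1 libraries and at most 121 CPM in controls, while H2-Aa, H2-Ab1 and H2-DMa change by orders of magnitude between libraries of 1 group.

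For anti-PD-1 against controls, 15 of the 41 members had enough counts to be tested, and edgeR called 0 of them, where it called 0.0764% of all tested genes. At an unadjusted p under 0.05 there were 2, H2-K1 and H2-Eb1, where 6.01% of all tested genes reached that value. DESeq2 called 0 members and 5.36% of all genes. It gave no adjusted p for H2-K1, H2-D1, H2-Eb1, H2-M3 and H2-Q6, so it did not judge them. H2-K1 and H2-Eb1 were the only tested members whose anti-PD-1 libraries all lay above the controls, where 3.45% of all tested genes did, and no tested member lay wholly below, where 7.33% did. The fitted change was positive for 9 of the 15, with a median of 0.62, against a median of 0.074 over all tested genes.

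**Figure D5:**
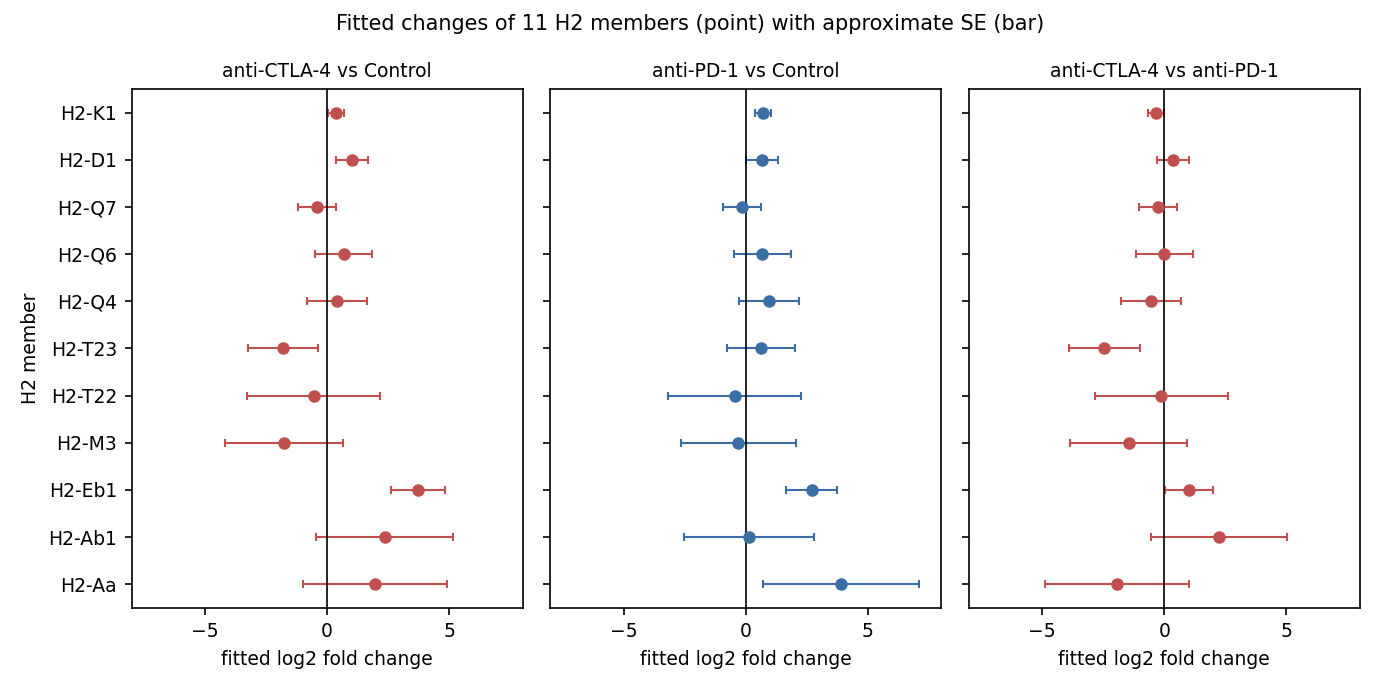
Fitted log2 fold changes (points) with approximate standard errors (bars) of the 11 H2 members that reached 5 CPM in at least 6 libraries, for the 3 comparisons. Bars are shortest for H2-K1, at 0.32, and reach 3.20 for H2-Aa, and none of the changes passed an adjusted p of 0.05 by edgeR.

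After anti-CTLA-4, the classical class I genes overlapped with controls in CPM. H2-K1 stood at 7127, 2904 and 6702 CPM after anti-CTLA-4, against 6417, 5560 and 6812 CPM in controls, so its mean was lower, at 5578 ± 2326 against 6263 ± 640 CPM (SD, n = 3 each). The fitted log2 fold change was positive, at 0.37 (SE 0.32, adjusted p = 0.828 by edgeR). It was -0.17 with library totals only, which is 0.17 above the median of -0.34 over all genes in that fit, and 0.32 without anti-CTLA-4 replicate 2. Divided by TMM factors, H2-K1 did not overlap, at 6342, 7128 and 6343 after anti-CTLA-4, against 5433, 4415 and 5551 in controls. H2-D1 stood at 623, 1295 and 852 CPM, against 833, 1098 and 822 CPM in controls (log2 fold change 1.03, SE 0.66, adjusted p = 0.557 by edgeR), and the change was -0.12 without anti-CTLA-4 replicate 2. Summed class I heavy chains stood at 9766, 4539 and 9304 CPM, against 8657, 8813 and 10409 CPM in controls. Divided by TMM factors, the sums were 8691, 11143 and 8804, against 7329, 6999 and 8482. The sums overlapped as CPM, while every scaled anti-CTLA-4 sum was above every scaled Control sum. The higher Control factors by themselves move scaled values this way, for H2-K1, H2-Q6 and the sums alike.

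Among the nonclassical genes, H2-M3 was lower in every anti-CTLA-4 library than in every control, at 0.131, 29.2 and 9.15 CPM against 75.6, 110 and 152 CPM. The groups overlapped once CPM was divided by the TMM factors, the fitted change was -1.76 (SE 2.40) with an adjusted p of 1 by edgeR, and it was 1.26 with RLE factors. H2-T23 stood at 125, 0.281 and 90.9 CPM after anti-CTLA-4, against 76.6, 194 and 593 CPM in controls (log2 fold change -1.83, SE 1.43, adjusted p = 0.741 by edgeR). H2-Q7 stood at 832, 159 and 820 CPM, against 792, 900 and 1424 CPM (log2 fold change -0.42, SE 0.79), H2-Q6 at 467, 139 and 358 CPM, against 237, 417 and 190 CPM (0.67, SE 1.17), and H2-Q4 at 418, 13.8 and 424 CPM, against 167, 297 and 290 CPM (0.40, SE 1.22). These groups overlapped in CPM, while H2-Q6 divided by TMM factors did not overlap, at 416, 340.3 and 338 after anti-CTLA-4, against 200.5, 331 and 155 in controls. For H2-T23, H2-Q7, H2-Q6 and H2-Q4 the library with the lowest CPM of all 9 was anti-CTLA-4 replicate 2. H2-T22 stood at 72.4, 0.0281 and 48.6 CPM, against 58.1, 28.6 and 111 CPM (log2 fold change -0.56, SE 2.72). None of the last 4 passed, each with an adjusted p of 1 by edgeR.

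H2-T24 was at or under 0.0306 CPM in all anti-CTLA-4 libraries, which is below the floor of 3 counts, while controls stood at 0.0241, 209 and 10.3 CPM. DESeq2 called it lower (adjusted p = 0.00857) and edgeR did not (adjusted p = 0.432), and Control replicate 1 was as low as the anti-CTLA-4 libraries. H2-Q10 stood at 101, 0.0843 and 0.0612 CPM after anti-CTLA-4, H2-Q5 at 0.820, 0.281 and 13.6 CPM, and H2-T10 at 0.0656, 0 and 93.6 CPM, each high in 1 library.

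Class II chain genes after anti-CTLA-4 varied between libraries. H2-Eb1 stood at 98.8, 919 and 195 CPM after anti-CTLA-4, against 9.64, 112 and 121 CPM in controls, and overlapped through replicate 1. Its fitted log2 fold change of 3.71 (SE 1.10) had an unadjusted p of 0.000726 and an adjusted p of 0.111 by edgeR. It was called without anti-CTLA-4 replicate 1 (4.08, adjusted p = 0.0271), while without replicate 2, the library with the highest macrophage marker sum, the change was 1.07 (adjusted p = 0.748 by edgeR). H2-Aa stood at 38.8, 2.53 and 27.1 CPM, against 20.2, 0.0643 and 0.0838 CPM in controls (log2 fold change 1.94, SE 2.95), and H2-Ab1 at 25.3, 28.0 and 214 CPM, against 59.5, 1.61 and 7.27 CPM (2.35, SE 2.79), both with an adjusted p of 1 by edgeR. H2-DMa was at 112 CPM in replicate 3 and at 0.0328 and 0.0562 CPM in replicates 1 and 2. H2-DMb2 stood at 0.230, 0 and 0 CPM.

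Against controls, edgeR called 0 of the 15 tested members after anti-CTLA-4, where it called 0.369% of all tested genes. At an unadjusted p under 0.05 there were 2, H2-Eb1 and H2-T24, where 11.3% of all genes reached that value. DESeq2 called 1, H2-T24, with 7.10% of all genes, and voom 0. For H2-K1, H2-D1, H2-Eb1, H2-M3 and H2-Q6, DESeq2 gave no adjusted p here. Groups did not overlap for H2-M3, which was lower, where 10.4% of all tested genes were, and no tested member lay wholly above, where 1.57% did. The fitted change was positive for 9 of 15, with a median of 0.40, against 0.0077 over all tested genes.

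Between the antibodies, H2-K1, H2-T23, H2-M3 and H2-T24 were each lower in every anti-CTLA-4 library than in every anti-PD-1 library. These are 4 of 15 tested members, where 6.95% of all tested genes lay wholly below, and no member lay wholly above, where 2.81% did. For H2-K1 the values were 7127, 2904 and 6702 CPM after anti-CTLA-4, against 8480, 8274 and 9394 CPM after anti-PD-1, but the fitted change was only -0.34 (SE 0.32, adjusted p = 0.782 by edgeR), and with RLE factors it was 1.42, relative to a median of 0.45 over all genes. For H2-T23 the values were 125, 0.281 and 90.9 CPM, against 468, 340 and 312 CPM, with a fitted change of -2.45 (SE 1.46, unadjusted p = 0.0945, adjusted p = 0.442 by edgeR). The H2-T23 change was negative in all 18 alternatives, from -3.04 to -1.73, and its groups did not overlap after TMM scaling either. For H2-M3 the fitted change was -1.46 (SE 2.38), and the groups overlapped after TMM scaling. H2-T24 was at 0, 0.0281 and 0.0306 CPM after anti-CTLA-4, against 129, 0.0604 and 0.117 CPM after anti-PD-1, so 1 anti-PD-1 library carried the difference.

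The other members with fitted changes overlapped between the antibodies. The changes were 0.36 (SE 0.65) for H2-D1, 1.01 (SE 0.996) for H2-Eb1, 2.23 (SE 2.78) for H2-Ab1, -1.94 (SE 2.95) for H2-Aa, -0.54 (SE 1.23) for H2-Q4, -0.0015 (SE 1.16) for H2-Q6, -0.26 (SE 0.78) for H2-Q7 and -0.11 (SE 2.71) for H2-T22. EdgeR called 0 of 15 members here, where it called 0.827% of all tested genes. At an unadjusted p under 0.05 there was 1, H2-T24, where 14.1% of all genes reached that value. DESeq2 called H2-T24, with 10.8% of all genes, and voom called 0 members. The fitted change was negative for 11 of 15, with a median of -0.34, against -0.049 over all tested genes.

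Partners of class I outside the H2 symbols were measured in a list of 15 genes, and 0 of 15 were called by edgeR in any comparison. Over all tested genes edgeR called 0.369% and 0.0764% after anti-CTLA-4 and anti-PD-1 against controls, and 0.827% between the antibodies. After anti-CTLA-4 against controls 10 of the 15 had a positive fitted change (median 0.97), after anti-PD-1 against controls 11 (median 0.22), and between the antibodies 10 (median 0.48). Of all 7858 tested genes, 3943, 4121 and 3858 had a positive fitted change in the same order. B2m, the common light chain, stood at 1605, 3069 and 817 CPM after anti-CTLA-4, 1158, 2134 and 1693 CPM after anti-PD-1, and 1635, 1646 and 1983 CPM in controls. Tap1, a subunit of the peptide pump, stood at 679, 134 and 202 CPM, 567, 207 and 473 CPM, and 125, 196 and 245 CPM in the same groups. The groups overlapped for both genes. Tapbp, the tapasin that bridges pump and heavy chain, stood at 350, 0.422 and 85.7 CPM, 149, 37.3 and 288 CPM, and 177, 387.5 and 288 CPM. The immunoproteasome subunit gene Psmb8 stood at 179, 234 and 35.2 CPM, 184, 129 and 123 CPM, and 36.0, 86.7 and 52.6 CPM. All its anti-PD-1 libraries were thus above the controls, where 3.45% of all tested genes were, while anti-CTLA-4 replicate 3 was below every control (anti-PD-1 against controls, log2 fold change 1.56, adjusted p = 0.9998 by edgeR). Nlrc5, the class I activator, stood at 584, 92.8 and 236 CPM, 866, 162 and 567 CPM, and 250.4, 457 and 548 CPM, and its groups overlapped.

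Of 12 class II pathway genes 9 were tested and 0 called by edgeR in any comparison, with Ciita, Rfxap and March1 at 0 counts in every library. The shares called over all tested genes were 0.369%, 0.0764% and 0.827%, in the order of comparisons given above. Medians of the fitted changes of the 9 were 0.73 after anti-CTLA-4 and -0.038 after anti-PD-1 against controls, and 1.41 between the antibodies. Single genes lay far from these medians, and 2 of the 9 had an unadjusted p under 0.05 by edgeR in each comparison. Of all tested genes, 11.3%, 6.01% and 14.1% reached that value in the same order. For anti-PD-1 against controls these 2 were Rfxank and Lgmn, chosen here after their values were seen. Rfxank, a subunit of the factor that binds class II promoters, stood at 8.07, 173 and 63.4 CPM after anti-PD-1, against 0.0241, 0.289 and 0.0279 CPM in controls (adjusted p = 0.823 by edgeR). Lgmn, an endosomal protease, stood at 0.0783, 0 and 0.0292 CPM after anti-PD-1, against 120.2, 36.3 and 0.140 CPM in controls (adjusted p = 0.823 by edgeR). The groups did not overlap for either gene, where 3.45% of all tested genes lay wholly above the controls and 7.33% wholly below. For Lgmn this rested on values near the floor, 0.140 CPM in Control replicate 3 against 0.0783 CPM in anti-PD-1 replicate 1. Of 8 interferon gamma axis genes 6 were tested and 0 called, with medians of 0.16, -0.0075 and -0.0083 in the same order. Irf1, the factor that binds interferon response elements, stood at 80.1, 204 and 178 CPM after anti-CTLA-4, 83.2, 96.9 and 292 CPM after anti-PD-1, and 114, 213 and 227 CPM in controls. Its values overlapped between all 3 groups.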

How the data were processed

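The authors deposited raw counts per gene symbol for 9 libraries, 1 per mouse and unnormalized; RNA of sorted cells was amplified with a single-cell kit and read as pairs, per the labels' protocols. Per the submitters' processing notes, the authors used TopHat2, HTSeq, DESeq2 and build GRCm38; the sources used here do not give versions, annotation or strand setting. HTSeq summary entries name no gene and were left out; gene counts were 32.9% to 40.7% of each library, ambiguous reads 0.631% to 1.13% and reads that were not unique 24.3% to 31.1%. Genes whose exons overlap an antisense gene, such as H2-T22 (29.4% of exon bases), H2-T10 (27.1%), H2-Q4 (19.1%) and H2-DMa (10.4%), are uncertain for that reason too. In GENCODE M21, H2-Ke6 shares 86.4% of its exon bases with Gm20427 on the same strand. Reads there can be set aside as ambiguous, so its low values are uncertain.

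Counts were fitted with edgeR 4.0.16 (R 4.3.3; quasi-likelihood, robust, TMM factors, filterByExpr with a minimum count of 10) over 7858 genes, with group as the only term and Benjamini-Hochberg adjusted p under 0.05. Standard errors are approximate, the size of the change divided by the root of its F statistic. Alternatives, limma 3.58.1 voom and DESeq2 1.42.0 among them, are given at the end. The fits were tried on simulated data with a smaller spread than these libraries, so the simulation does not show how the fits perform at this spread. Library pairs of a group differed by far more than sampling noise (mean chi-square per gene 1228 to 4277). Nothing in the labels says how mice were housed or batched. The p-values test group differences against the spread between libraries, which holds mouse and library preparation together. Floors cover counting error only. The 3 symbols with -ps left out by the rule had 0 counts. Members at 5 CPM in at least 2 libraries are named with every value, and those at 5 CPM in at least 6 also with a fitted change. The members, lists and tests were chosen with earlier results of these data known. Single values of some genes of the fixed lists are not reported here.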

Additional observations from a re-analysis of the deposited data

How the results depend on the processing

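The spread between libraries of a group (coefficient of variation 1.84 over all genes), 3 mice per group and anti-CTLA-4 replicate 2 limit these results. Of 33 fold changes of 11 H2 members, each under 18 alternatives fixed with the design, 537 of 594 values kept their sign and side of the threshold, 2 passed it (H2-K1 for anti-PD-1 against controls with voom, and H2-Eb1 for anti-CTLA-4 against controls without anti-CTLA-4 replicate 1) and 55 changed sign. An absent adjusted p, as DESeq2 gave for H2-K1, H2-D1, H2-Eb1, H2-M3 and H2-Q6 against controls, was counted as not passing. H2-K1 for anti-PD-1 against controls, and H2-Eb1 for each antibody against controls, kept a positive sign in all 18. The cause of the changes was not tested. Called H2 members, 0 throughout with edgeR as described, became 1 with DESeq2 in both anti-CTLA-4 comparisons (H2-T24), 1 with voom for anti-PD-1 against controls (H2-K1), 0 to 1 with libraries left out in turn for anti-CTLA-4 against controls (H2-Eb1), and 0 to 1 for anti-PD-1 against controls (H2-DMa, without anti-CTLA-4 replicate 2). Called genes over the whole table, for anti-CTLA-4 against controls, anti-PD-1 against controls and anti-CTLA-4 against anti-PD-1 in that order, were 29, 6 and 65. They became 0, 0 and 0 with RLE factors, 0, 0 and 6 with library totals only, 64, 2 and 98 without a filter, 558, 421 and 847 with DESeq2, 0, 2 and 0 with voom, 1, 0 and 31 with only the 2 groups compared, and 1, 2 and 16 without the 2 libraries with the fewest genes. A filter at 5 CPM in 3 libraries gave 18 for anti-CTLA-4 and 3 for anti-PD-1 against controls, and a threshold of 0.10 gave 50 for anti-CTLA-4 against controls and 105 between the antibodies. With libraries left out in turn the counts were 0 to 79, 0 to 5 and 6 to 145. With the replicate number as a block they were 10, 1 and 12, and the block turned the log2 fold changes of H2-Q4 for anti-CTLA-4 against controls (-0.079), H2-Ab1 for anti-PD-1 against controls (-3.09), and H2-Eb1 (-0.14) and H2-T22 (0.87) between the antibodies. Same-numbered libraries correlated at -0.035 to 0.018 in their deviations from group means, and differently numbered ones at -0.023 to 0.030. The replicate numbers thus showed no sign of pairing the mice, though a spread this large could hide one. RLE factors, which DESeq2 shares, turned H2-M3 (1.26) and H2-Q7 (1.03) for anti-CTLA-4 against controls, H2-Q7 (0.057) for anti-PD-1 against controls, and H2-K1 (1.42), H2-M3 (1.30), H2-Q6 (1.66) and H2-Q7 (0.97) between the antibodies. Such factors move the median of all genes to 0.56, 0.26 and 0.45 in the 3 comparisons, and H2-Q7 for anti-PD-1 against controls was -0.21 relative to it. Library totals only turned H2-K1 for anti-CTLA-4 against controls (-0.17), and H2-D1 (-0.40) and H2-Eb1 (-0.0073) between the antibodies. The medians of all genes were then -0.34 and -0.21, and relative to them H2-K1 (0.17) and H2-Eb1 (0.20) stayed positive. Voom turned H2-D1 for anti-CTLA-4 against controls (-0.024), H2-Ab1 for anti-PD-1 against controls (-3.54), and H2-D1 (-0.62), H2-Eb1 (-0.95), H2-Q7 (0.012) and H2-T22 (1.49) between the antibodies. Its medians of all genes were -0.55, -0.28 and -0.24, and relative to them H2-D1 for anti-CTLA-4 against controls stayed positive (0.52). Leaving out both libraries with the fewest genes, anti-CTLA-4 replicate 2 and anti-PD-1 replicate 2, turned H2-D1 (-0.13) and H2-T22 (0.039) for anti-CTLA-4 against controls, H2-T22 for anti-PD-1 against controls (0.10), and H2-Aa (0.013), H2-D1 (-0.61) and H2-Eb1 (-0.93) between the antibodies. With libraries left out in turn, the log2 fold changes that turned ranged for anti-CTLA-4 against controls from -0.12 to 1.28 (H2-D1), -0.038 to 0.93 (H2-Q4) and -1.25 to 0.041 (H2-T22). For anti-PD-1 against controls they ranged from -8.01 to 2.51 (H2-Ab1), -0.48 to 0.12 (H2-Q7) and -4.00 to 0.12 (H2-T22), and between the antibodies from -0.78 to 0.64 (H2-D1), -1.60 to 1.55 (H2-Eb1), -0.96 to 0.025 (H2-Q4), -0.23 to 0.24 (H2-Q6), -0.48 to 0.022 (H2-Q7) and -0.77 to 3.42 (H2-T22). Divided by TMM factors, the summed class II mean after anti-CTLA-4 was 998 in place of 553 CPM, and the class I mean in controls 7603 in place of 9293 CPM.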
